A study of Mus musculus with 9 samples.

Results

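The genes described here carry out or regulate the fusion of myoblasts into multinucleated muscle fibres. They are Mymk, Mymx, Myof, Dysf, Adam12, Adgrb1, Adgrb3, Jam2, Cd9 and Cd81, 10 of the 21938 protein-coding genes of the GENCODE M21 annotation on the assembled chromosomes. They are taken as a list of names, and the rule uses no measured value of the series. Each was given a window of the gene body and 10 kb on either side (mouse build mm10), and every peak overlapping a window was counted. The windows held 100 of 58309 regions, where a region is a run of overlapping or touching peaks from the 6 peak lists.

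The lists come from CUT and RUN, in which an antibody guides micrococcal nuclease to a chromatin protein and the released DNA is sequenced. Here anti-Flag M2 was directed at MyoD1 carrying a Flag-Halo tag. All 6 libraries came from one cell line derived from a single clone of C2C12, a mouse myoblast line. It carries the tag on both copies of endogenous MyoD1 and an additional tagged MyoD1 under a doxycycline-inducible promoter. Cultures were moved to differentiation medium without doxycycline (no dox) or with doxycycline for 6 h (+dox), with 3 biological replicates each. The antibody therefore read endogenous MyoD1 in both groups, and endogenous together with induced MyoD1 in +dox. The 3 libraries of wild-type C2C12, which have no Flag tag, were not analysed here, so the values have no untagged background beside them. The lists record binding and not expression, so the cell type could not be checked against its marker genes.

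Fusion begins when differentiating myoblasts recognise and adhere to each other. The junctional adhesion molecule Jam2, the adhesion receptors Adgrb1 and Adgrb3, and the metalloprotease Adam12 take part in this. Membrane merger itself is driven by the muscle-specific fusogens myomaker (Mymk) and myomixer (Mymx), and the ferlins Myof and Dysf handle calcium-triggered membrane trafficking and repair. The tetraspanins Cd9 and Cd81 organise membrane domains and influence how readily cells fuse. MyoD1 is a basic helix-loop-helix factor that binds E-boxes, written CANNTG, and prefers CAGCTG.

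The sequences at chosen sites show what lay under the binding maxima. All are from sites called in 5 or 6 libraries but that of the Mymx start, called in 2. Each is a 150-base stretch of the mm10 plus strand (GRCm38) around the median position of the peak maxima, with 2 kinds of E-box in capitals. The first is CAGCTG, which reads the same on both strands. The second is CAGGTG on either strand, which appears as CACCTG when it lies on the minus strand. Sites that lie in untranslated sequence, such as those at the starts of Cd9 and Cd81, are described without sequence. Stretches are given for chosen sites at Mymk, Mymx, Myof, Dysf, Adam12, Jam2 and Cd81, while the intronic consensus sites of Adgrb1 and Cd9 are described without one.
Mymk intron, chr2:27069801-27069950: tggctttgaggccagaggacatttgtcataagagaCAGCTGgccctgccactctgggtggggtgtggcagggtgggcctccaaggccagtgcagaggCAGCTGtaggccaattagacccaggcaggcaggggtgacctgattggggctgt
Mymk upstream, chr2:27079214-27079363: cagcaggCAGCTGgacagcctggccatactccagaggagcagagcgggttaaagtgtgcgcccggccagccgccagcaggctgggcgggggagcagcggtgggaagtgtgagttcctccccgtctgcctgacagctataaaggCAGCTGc
Mymx downstream, chr17:45597101-45597250: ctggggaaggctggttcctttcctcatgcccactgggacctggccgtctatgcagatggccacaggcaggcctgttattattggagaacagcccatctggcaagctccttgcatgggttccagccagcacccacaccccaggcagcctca
Mymx start, chr17:45602138-45602287: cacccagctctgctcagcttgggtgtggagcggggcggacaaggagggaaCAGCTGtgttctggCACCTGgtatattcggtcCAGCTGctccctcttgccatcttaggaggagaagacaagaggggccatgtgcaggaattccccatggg
Myof intron, chr19:38015601-38015750: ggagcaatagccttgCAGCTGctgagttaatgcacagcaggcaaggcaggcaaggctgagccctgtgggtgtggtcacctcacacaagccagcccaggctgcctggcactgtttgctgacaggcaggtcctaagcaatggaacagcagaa
Myof near its start, chr19:38042401-38042550: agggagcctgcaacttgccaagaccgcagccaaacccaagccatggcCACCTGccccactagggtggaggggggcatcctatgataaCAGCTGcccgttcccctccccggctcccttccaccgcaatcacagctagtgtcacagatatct
Dysf intron, chr6:84124701-84124850: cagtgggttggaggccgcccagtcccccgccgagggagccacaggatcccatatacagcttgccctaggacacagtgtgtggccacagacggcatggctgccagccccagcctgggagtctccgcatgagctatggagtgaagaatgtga
Adam12 intron, chr7:133937551-133937700: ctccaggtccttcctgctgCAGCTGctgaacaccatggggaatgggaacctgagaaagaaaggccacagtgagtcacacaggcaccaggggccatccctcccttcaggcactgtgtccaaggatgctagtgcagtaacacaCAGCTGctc
Jam2 intron near its start, chr16:84775051-84775200: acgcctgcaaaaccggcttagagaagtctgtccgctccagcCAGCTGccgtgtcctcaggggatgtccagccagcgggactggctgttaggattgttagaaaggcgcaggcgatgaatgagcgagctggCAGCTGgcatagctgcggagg
Cd81 intron, chr7:143062901-143063050: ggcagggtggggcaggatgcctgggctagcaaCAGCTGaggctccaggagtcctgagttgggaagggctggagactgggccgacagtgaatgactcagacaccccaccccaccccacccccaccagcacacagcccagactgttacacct

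The Mymk, Adam12 and Jam2 stretches hold 2 copies of CAGCTG each, and the Cd81 stretch and the Myof intron stretch hold 1. The stretch at the Mymx start holds 2 copies of CAGCTG and 1 CACCTG, and the one near the Myof start holds 1 of each. The Mymx downstream and Dysf stretches hold neither form, and the 300 bases around the Dysf maximum hold no CANNTG at all. The Mymx downstream region has a second maximum, at 45599576, for which no stretch is shown. The 300 bases around it hold 1 CAGCTG, 3 bp from the maximum, and 2 copies of CAGGTG on either strand. In the 300 bases around its maximum, 5 of the 7 windows' regions called in all 6 libraries had CAGCTG, against 55.2% of the 4838 such regions of the genome. Among windows' regions called in 2 or more libraries CAGCTG was present in 18 of 32, against 43.3% of 18773. Among those called in 1 library it was present in 24 of 68, against 33.9% of 39535. CAGGTG on either strand was present in 24 of all 100 windows' regions, against 28.5% of all regions. TGANTCA, the AP-1 motif, was present in 20 of 100, against 17.4%. These shares describe letters in a window and are not evidence of a bound site.

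Calls at the fusion genes followed the length of the lists. The windows contained 16, 24 and 23 peaks in the libraries without dox (replicates 1, 2 and 3 in order) and 21, 23 and 96 in those with dox. The group means were 21 ± 4.36 and 46.7 ± 42.7 peaks (SD, n = 3 each). The list of +dox replicate 3 had 53661 peaks where the others had 9389 to 13877, and without it the group means differed by 1 peak. As a share of each list the windows' peaks ranged between 0.168% and 0.179% in all 6 libraries. With lists of equal length, the strongest 9389 peaks of each by maximum signal, the windows held 16, 15 and 18 peaks without dox and 15, 18 and 20 with dox.

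Depth, read from the steps of the signal values, was 2868000 to 4667000 alignments in 5 libraries and 8030000 in +dox replicate 3. Maxima were even numbers of alignments at 94.8% to 99.2% of peaks, so both mates of a pair may have been counted and fragments may be fewer than the alignments given here. Whether reads or fragments were counted is not given in the sources used here. The lowest total signal in the lists of the replicates numbered 3 was 354 (no dox) and 336 (+dox), against 837 to 904 in the other 4 lists. Those libraries were called down to weaker peaks, and +dox replicate 3 entered 93 of the 100 windows' regions. Of these, 61 were called in +dox replicate 3 alone, or 61%, close to the 59.2% of all merged regions. Their maxima held 4 to 50 alignments with a median of 10, and 3 of the 61 remained in the shortened list. How far depth and the calling threshold set the counts was not tested.

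**Figure D1:**
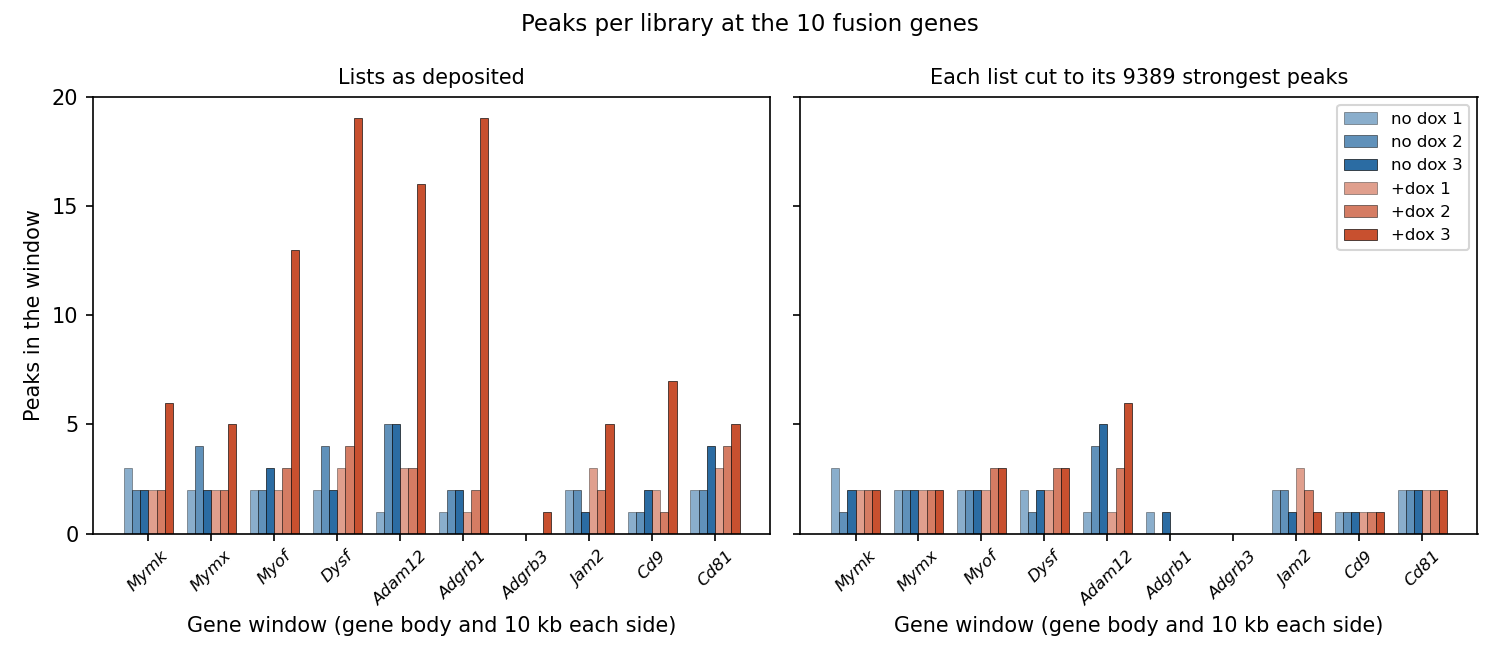
Peaks per library in the window of each fusion gene, in the lists as deposited (left) and with only the 9389 strongest peaks of each list kept (right). Bars are single libraries. In the deposited lists +dox replicate 3 stands above the others at every gene, and in the shortened lists no gene has more than 6 peaks in a library.

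Of the 100 regions 7 were called in all 6 libraries, or 7%, against 8.3% of all merged regions. Counted by gene, 6 of the 10 genes (Mymk, Mymx, Myof, Jam2, Cd9 and Cd81) had such a region, against 21.7% of protein-coding genes with windows of the same kind. Windows were not matched for length, which ranged from 21.1 kb at Mymx to 782 kb at Adgrb3. A further 6 regions were called in 5 of 6 libraries, at Mymk, Myof, Dysf and Adam12, and each included +dox replicate 3. Most regions were intronic, 74 of 100, while 3 had their maximum in a coding exon, 6 in untranslated sequence and 17 outside the gene.

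A consensus region was one called in at least 2 of the 3 libraries of a group. By this rule 8 of 10 genes had a region without dox, against 35.5% of protein-coding genes, and 9 of 10 had one with dox, against 48.4%. There were 17 consensus regions without dox, 0.178% of the 9560 of the genome, and 22 with dox, 0.158% of 13908. Regions in the +dox consensus alone numbered 6, and each lay at a different gene (Dysf, Adam12, Adgrb1, Jam2, Cd9 and Cd81). Thus 6 of 10 genes had one, against 25.6% of protein-coding genes, with windows not matched for length. By region, 6 of the windows' 22 +dox consensus regions were of this kind, against 5361 of the genome's 13908. All 6 of the windows' regions had a peak in +dox replicate 3, 3 had one in all +dox libraries, and 4 also had one in a single no dox library. Without +dox replicate 3, 3 regions were in the +dox consensus alone and 4 in the no dox consensus alone. The thresholds were then unlike, since a +dox region needed both remaining libraries and a no dox region still 2 of 3. With both libraries numbered 3 left out, so that each group needed both remaining libraries, the numbers were 6 and 2. In the lists of equal length the numbers were 4 and 1.

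**Figure D2:**
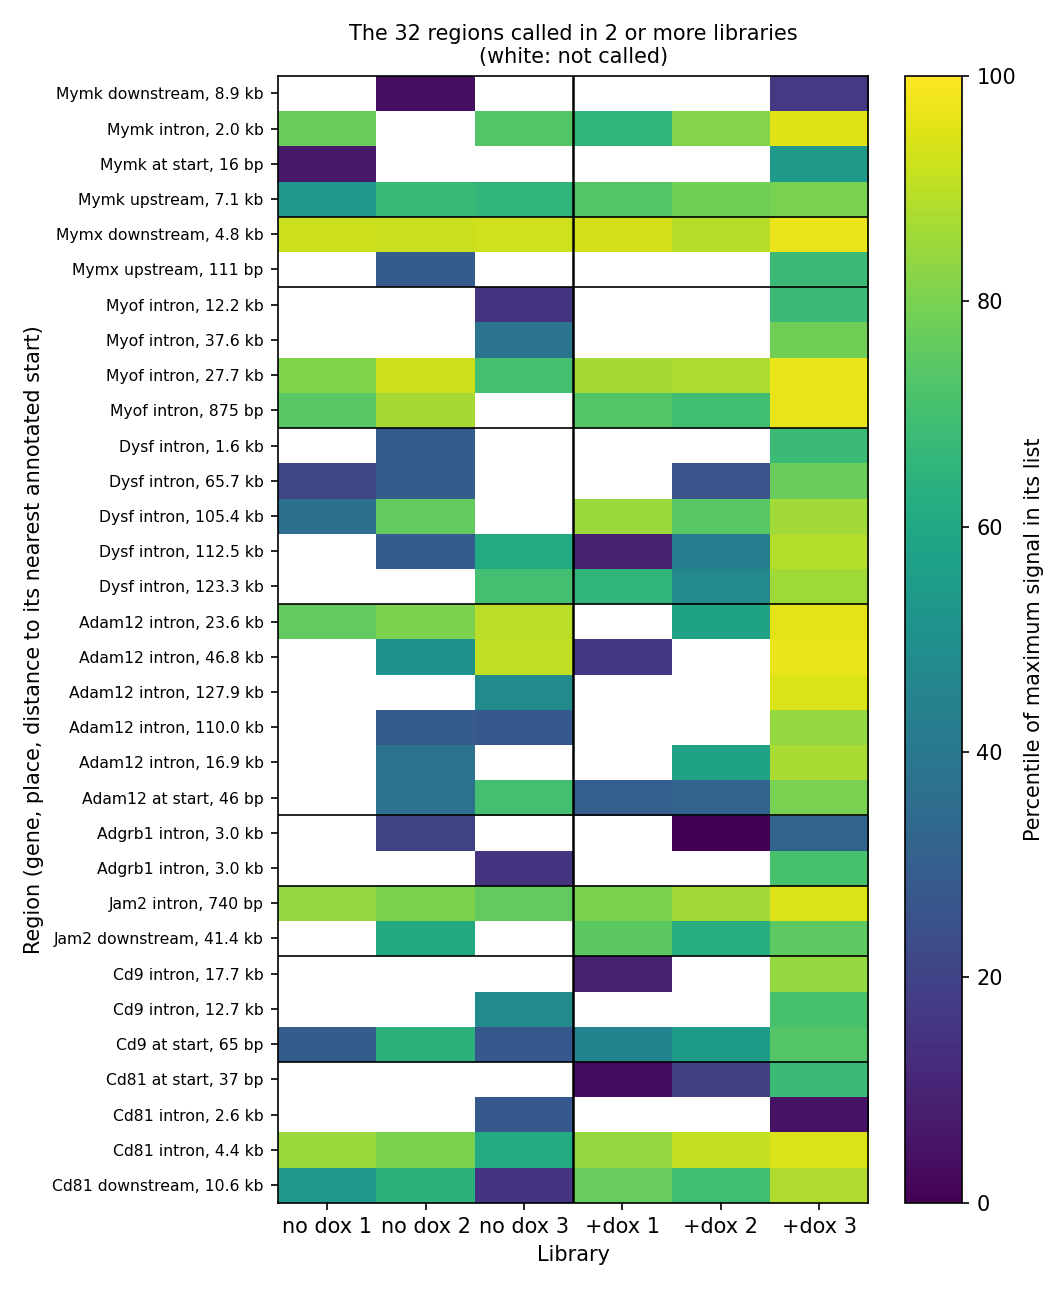
Calls at the 32 fusion gene regions found in 2 or more libraries. Rows are regions, columns are libraries, colour is the percentile of the maximum signal in that library's list, and white means that no peak was called. The brightest rows across both groups are the regions downstream of Mymx and in the introns of Myof, Jam2 and Cd81, and the +dox replicate 3 column has no white cell.

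Strength was compared as a percentile, the rank of a peak's maximum signal within its own list, since percentiles need no common scale. Differences are +dox minus no dox, and each was tested with an exact two-sided permutation test. The 6 libraries can be split 3 against 3 in 20 ways, so p cannot go below 0.1. The smallest adjusted p over the 4838 regions called in all 6 libraries was 0.421, so no region could pass 0.05.

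Mymk had 2 sites called in 5 or more libraries. The intronic site (chr2:27069301-27070800, maximum at 27069876, 2008 bp from the nearest annotated start) was called in 5 libraries at percentiles of 77.5 and 73.4 in no dox replicates 1 and 3, and 65.3, 81.4 and 95.3 with dox. No dox replicate 2 had no peak there. The called values of the groups overlapped, and the maxima of the 5 libraries lay within 75 bp of each other, over the stretch with 2 copies of CAGCTG.

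The upstream site of Mymk (chr2:27077301-27079800, maximum at 27079289) lay 7110 bp from its nearest start and 90 bp from the start of Adamtsl2, an extracellular matrix gene. It was called in all 6 libraries, at percentiles of 53.3, 67.4 and 66.0 without dox and 73.4, 78.8 and 79.9 with dox, from maxima of 20 to 54 alignments. Every +dox value was above every no dox value, with group means of 62.2 ± 7.77 and 77.3 ± 3.49 (SD, n = 3 each) and a difference of 15.1 (exact permutation p = 0.1, adjusted p = 0.421). Such separation upward was seen at 23.7% of the 4838 regions. It rests on ranks in lists of unequal length. The maxima were 5.58, 6.32 and 4.29 CPM (coverage scaled to library size) without dox and 16.0, 15.0 and 3.98 CPM with dox, so on this scale +dox replicate 3 was the lowest of the 6 libraries. Counted from the top of each list, the peak ranked 4185, 4335 and 4272 without dox and 3262, 2743 and 10458 with dox, and that of +dox replicate 3 was not in its shortened list. Among the 4838 regions alone the percentiles were 29.4, 29.2 and 36.1 without dox and 46.2, 50.01 and 11.3 with dox. By each of these measures +dox replicates 1 and 2 stood above the no dox libraries and +dox replicate 3 below them. At the start of Mymk itself (maximum 16 bp from it) peaks were called in no dox replicate 1, at percentile 6.8, and in +dox replicate 3, at percentile 54.0.

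The Mymx window held the site with the highest mean percentile of the list. A region of 6900 bp (chr17:45593551-45600450) contained 2 maxima that were both called in all 6 libraries, and both lay nearer to starts of the neighbouring nucleoside transporter gene Slc29a1 than to Mymx. The leading maximum, at 45597176, was 4790 bp from the nearest Mymx start and 110 bp from an annotated Slc29a1 start. Its percentiles were 92.2, 92.1 and 92.7 without dox and 93.6, 89.1 and 96.9 with dox, from maxima of 56 to 152 alignments. The groups overlapped, with means of 92.3 ± 0.30 and 93.2 ± 3.91 (SD, n = 3 each) and a difference of 0.88 (exact permutation p = 0.7, adjusted p above 0.05, as at every region). The second maximum, at 45599576 and 27 bp from a Slc29a1 start, stood at 85.4, 86.0 and 80.3 without dox and 81.6, 81.4 and 91.7 with dox. The sign of the leading maximum's difference turned when +dox replicate 3 was left out, to -0.98.

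At the start of Mymx a weaker region was called in 1 library of each group. The percentile was 29.1 in no dox replicate 2 and 68.0 in +dox replicate 3, where the maximum held 14 and 20 alignments. The median of those maxima (45602213) lay 111 bp upstream of the nearest Mymx start, over the stretch with 3 capitalised E-boxes.

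Myof encodes myoferlin, a membrane protein of the plasma membrane and endosomes of myoblasts. Its leading site was intronic (chr19:38015101-38016150, maximum at 38015676 in all 6 libraries, 27675 bp from the nearest start). Percentiles were 81.1, 92.4 and 70.0 without dox and 86.4, 87.8 and 97.0 with dox. The no dox range spanned the lower +dox values, and the difference of 9.23 between means of 81.2 ± 11.2 and 90.4 ± 5.76 was smaller than the no dox SD (n = 3 each, exact permutation p = 0.3). It was 3.65 without no dox replicate 3, 5.93 without +dox replicate 3 and 14.8 without no dox replicate 2, and 22.2 by rank of the total signal. A second site (chr19:38042101-38043000), 875 bp from a start, was called in every library but no dox replicate 3, at 74.2 and 86.6 without dox and 73.4, 69.4 and 96.8 with dox.

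Dysf, whose product dysferlin repairs the muscle membrane, had no region in all 6 libraries. Its most often called region was intronic (chr6:84124151-84125650, maximum at 84124776, 105387 bp from the nearest start) and was missing in no dox replicate 3. The percentiles were 36.6 and 76.0 in no dox replicates 1 and 2 and 84.8, 74.1 and 86.3 with dox, and they overlapped. Another intronic region (chr6:84141701-84143850) was called in all +dox libraries at 65.3, 46.9 and 85.6, and in no dox replicate 3 at 70.0, and so counted in the +dox consensus alone. Of the 19 Dysf regions 14 were called in +dox replicate 3 alone, and the peaks per library were 2, 4 and 2 without dox and 3, 4 and 19 with dox.

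Adam12, or meltrin alpha, is a membrane-anchored metalloprotease and disintegrin expressed by fusing myoblasts. Its leading region was intronic (chr7:133937301-133938450, maximum at 133937626, 23639 bp from the nearest start) and was called at 76.0, 80.4 and 89.8 without dox and at 57.6 and 96.0 in +dox replicates 2 and 3, with no peak in +dox replicate 1. This was the one region of the windows that all no dox libraries but not all +dox libraries had. The gene's start (maximum 46 bp from it) was called in 5 libraries, at 37.5 and 70.0 in no dox replicates 2 and 3 and at 29.7, 31.9 and 79.9 with dox. Adam12 also had the list's single region in the no dox consensus alone (chr7:134114001-134115800), called in no dox replicates 2 and 3 and in +dox replicate 3. Its +dox consensus region outside the no dox consensus (chr7:134207751-134208750) was called in no dox replicate 2 and in +dox replicates 2 and 3.

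The adhesion receptors Adgrb1 and Adgrb3 had the fewest consensus regions of the 10 genes. Adgrb1, whose product recognises phosphatidylserine and signals through Elmo and Dock proteins, had 1, 2 and 2 peaks without dox and 1, 2 and 19 with dox. In the lists of equal length it had a peak in no dox replicates 1 and 3 and none with dox. One of its 24 regions reached a consensus (chr15:74517601-74520850), with percentiles of 19.7 in no dox replicate 2, 0.34 in +dox replicate 2 and 31.8 in +dox replicate 3. Adgrb3, with the longest window, had 1 peak in all, in +dox replicate 3 with 10 alignments at percentile 31.8 and a maximum 819 bp from a start.

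Jam2 had a region close to its start (chr16:84773701-84775800, maximum at 84775126, 740 bp from the nearest start, in an intron). Percentiles were 84.0, 80.4 and 76.1 without dox and 80.3, 86.2 and 94.6 with dox, which overlapped. Between the means of 80.2 ± 3.93 and 87.0 ± 7.21 (SD, n = 3 each) lay 6.87 percentiles (exact permutation p = 0.3). The difference was 3.07 without +dox replicate 3 and 0.88 in lists of equal length. Its +dox consensus region outside the no dox consensus (chr16:84834201-84836300) lay downstream of the gene, 26 bp from a start of Gabpa, which encodes a transcription factor. It was called in no dox replicate 2 at percentile 60.7 and in the +dox libraries at 74.6, 63.2 and 75.3.

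Cd9 was bound at its start (chr6:125493751-125495300, maximum at 125494726, 65 bp from the start in untranslated sequence). Percentiles were 29.3, 64.3 and 27.5 without dox and 45.3, 54.4 and 73.2 with dox, from maxima of 10 to 28 alignments. No dox replicate 2 stood above 2 of the 3 +dox libraries, and the difference of 17.2 between means of 40.4 ± 20.8 and 57.6 ± 14.2 was smaller than the no dox SD (n = 3 each, exact permutation p = 0.3). With 1 library left out it ran from 9.45 (without +dox replicate 3) and 10.8 (without no dox replicate 3) to 29.2 (without no dox replicate 2). The 300 bases around this maximum hold both kinds of E-box once. An intronic Cd9 region (chr6:125476601-125477850) was called in +dox replicates 1 and 3 alone, at percentiles of 9.05 and 84.0.

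Cd81 had 2 regions in all 6 libraries. The intronic one (chr7:143062451-143063350) had its maximum at 143062976 in all 6, 4400 bp from the nearest start. Percentiles were 84.8, 80.4 and 61.2 without dox and 84.3, 91.3 and 94.8 with dox. The means were 75.4 ± 12.6 and 90.1 ± 5.36 (SD, n = 3 each), and the difference of 14.7 fell to 7.54 without no dox replicate 3 (exact permutation p = 0.2 with all libraries).

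The other Cd81 region (chr7:143067951-143070550, maximum at 143069176) lay downstream, 10600 bp from the nearest Cd81 start and 73 bp from a start of Tssc4. The 300 bases around that maximum hold no CANNTG. Percentiles were 53.3, 64.3 and 14.9 without dox and 76.8, 69.4 and 87.9 with dox. Every +dox value was above every no dox value, with means of 44.2 ± 26.0 and 78.1 ± 9.31 (SD, n = 3 each) and a difference of 33.9 (exact permutation p = 0.1, adjusted p = 0.421). The maximum of no dox replicate 3 lay at 143069701 with 8 alignments, apart from those of the other libraries, and without that library the difference was 19.2. Among the 4838 regions alone the groups overlapped, at 29.4, 25.5 and 2.76 without dox and 51.0, 35.1 and 26.4 with dox.

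At the start of Cd81 (chr7:143052351-143053300, maximum at 143052776, 37 bp from the start) peaks were called in all 3 +dox libraries and in no no dox library. It was the one region of the 100 with this pattern, so 1 gene of 10 had one, against 3.77% of protein-coding genes. Of all merged regions 1.09% had the pattern (634), while the reverse pattern was held by 0 windows' regions and 0.00858% of all. The peaks were low, with 8, 14 and 20 alignments at percentiles of 3.5, 19.0 and 68.0. None of them remained in the lists of equal length. A separate peak of no dox replicate 3 with 10 alignments began at 143053401, just past the end of this region, at percentile 27.5. The 300 bases around the +dox maximum hold no CANNTG.

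**Figure D3:**
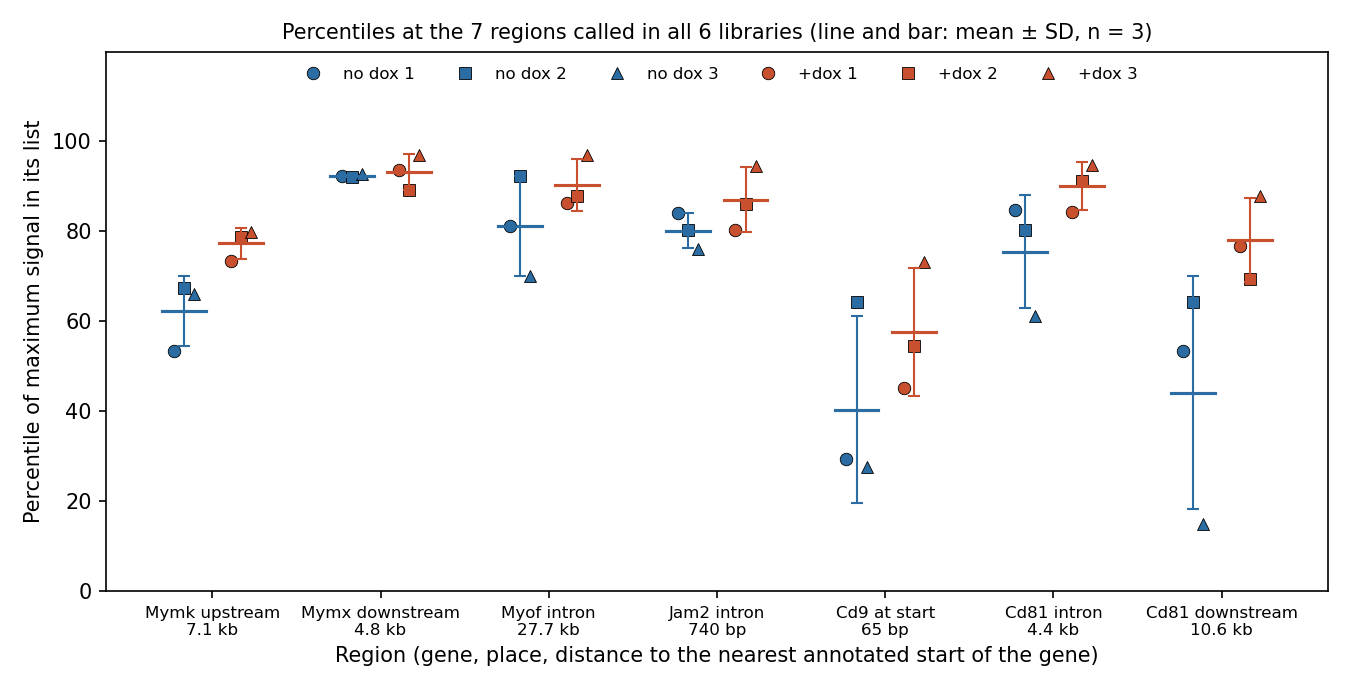
Percentiles of maximum signal at the 7 fusion gene regions called in all 6 libraries. Points are libraries (circle, square and triangle for replicates 1, 2 and 3), and horizontal lines and bars are group means ± SD (n = 3). The groups do not overlap at Mymk upstream and Cd81 downstream, and +dox replicate 3 is the highest value at each of the 7 regions.

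Over the 7 regions called in all 6 libraries, the +dox mean was higher at 7, against 76.1% of the 4838, and the groups did not overlap at 2, against 23.7%. The reverse separation occurred at 0 of 7 and at 0.0413% of the 4838. The median difference was 14.7 percentiles at the fusion genes, or 7.54 without no dox replicate 3, and 6.4 over all with every library. At all 7, +dox replicate 3 had the highest percentile of the 6 libraries, as it did at 85.8% of the 4838, and its list has many more low peaks below them. When the 4838 regions were instead ranked among themselves in each library, which removes the length of the lists, the difference was positive at 5 of 7 with a median of 4.28 (0.195 over all). By that ranking 0 of 7 separated, against 3.56% upward and 4.44% downward over all. Mymx then fell to -6.19 and Cd9 to -0.43, while the Cd81 intronic and downstream regions stood at 15.0 and 18.3. Without +dox replicate 3, the median difference was 9.45 at the fusion genes and 1.99 over all. The difference was then positive at 6 of 7, against 58.5% of the 4838.

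**Figure D4:**
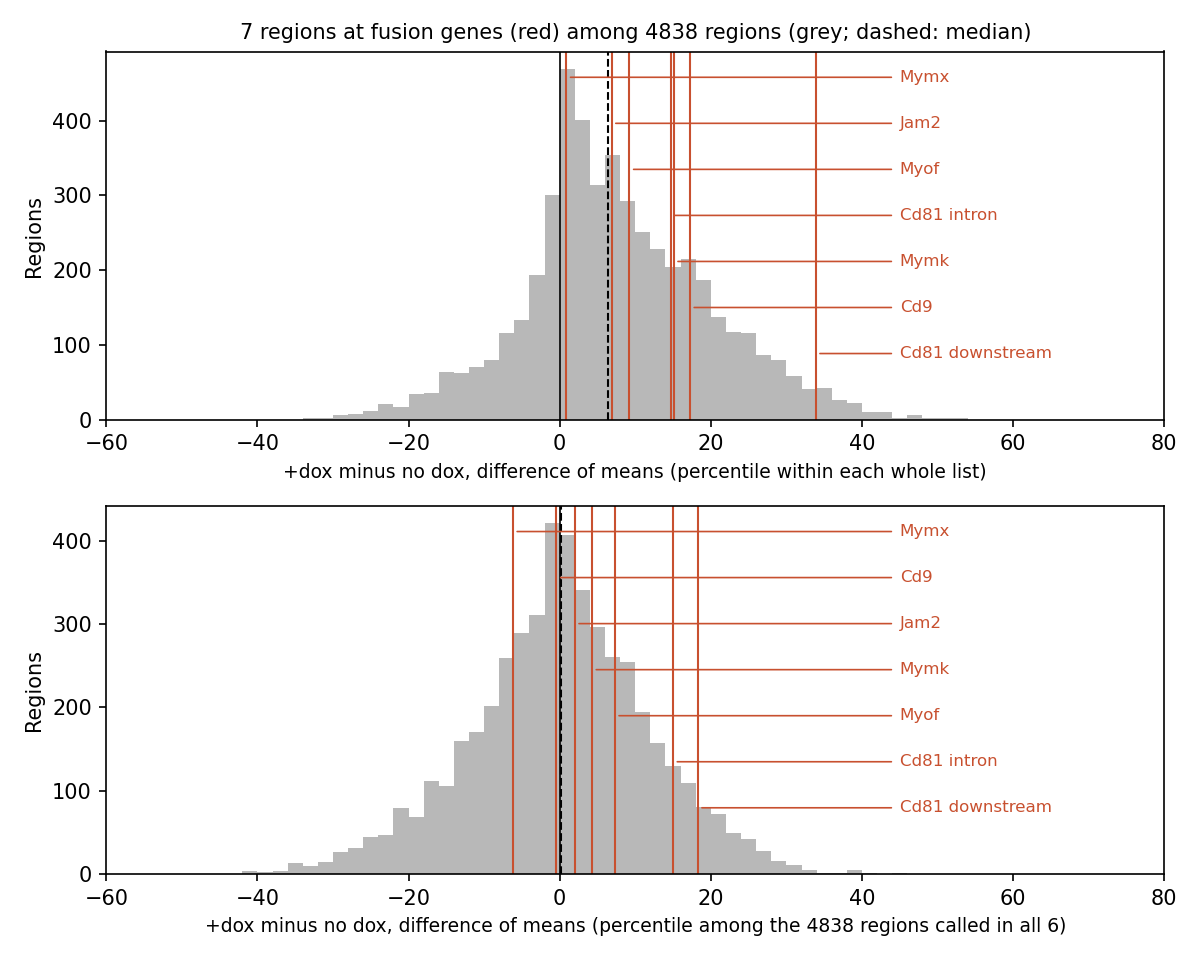
Differences in percentile, +dox minus no dox, at the 7 fusion gene regions (red lines) among all 4838 regions called in all 6 libraries (grey; dashed line, median). The upper panel ranks peaks within each whole list and the lower panel ranks the 4838 regions among themselves. All 7 are above 0 in the upper panel and 5 of 7 in the lower one, with Mymx lowest and Cd81 downstream highest in both.

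The maximum signal itself, in CPM, was compared on the log2 scale with limma over the same 4838 regions. It was higher with dox at all 7 fusion gene regions, by 0.89 ± 0.60 at Mymk, 0.77 ± 0.56 at Mymx, 1.22 ± 0.59 at Myof, 1.03 ± 0.56 at Jam2 and 0.64 ± 0.59 at Cd9 (log2 difference ± SE). It was 1.43 ± 0.59 at the Cd81 intron and 1.51 ± 0.61 at Cd81 downstream. The median over all 4838 regions was 0.91, so Mymk, Mymx and Cd9 lay below the shift common to the libraries and the other 4 lay above it, each by less than its SE. None of the 7 passed an adjusted p of 0.05 (limma adjusted p between 0.203 and 0.40), as with 0 of the 4838 (0%), although 1173 had an unadjusted p under 0.05, the 2 Cd81 regions among them.

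Samples of the same number deviated together, so the fit was repeated with the replicate number as a block. Then 5 of 7 passed, at limma adjusted p-values of 0.0463 (Mymk), 0.00799 (Myof), 0.0224 (Jam2), 0.00223 (Cd81 intron) and 0.00141 (Cd81 downstream), and Mymx (0.0818) and Cd9 (0.143) did not. In that fit 53.5% of all 4838 regions were called higher and 0.062% lower, so the calls at the fusion genes stand beside calls at a majority of all regions. With quantile normalization, which removes the common shift, and the same block, 0 of 7 and 0 of the 4838 passed (552 had an unadjusted p under 0.05). The largest remaining difference was 0.68 ± 0.31 at Cd81 downstream (limma adjusted p = 0.446), and that of Mymx was -0.27 ± 0.29. CPM carries no spike-in scale, so a shift common to all regions and a difference between libraries in background cannot be told apart.

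**Figure D5:**
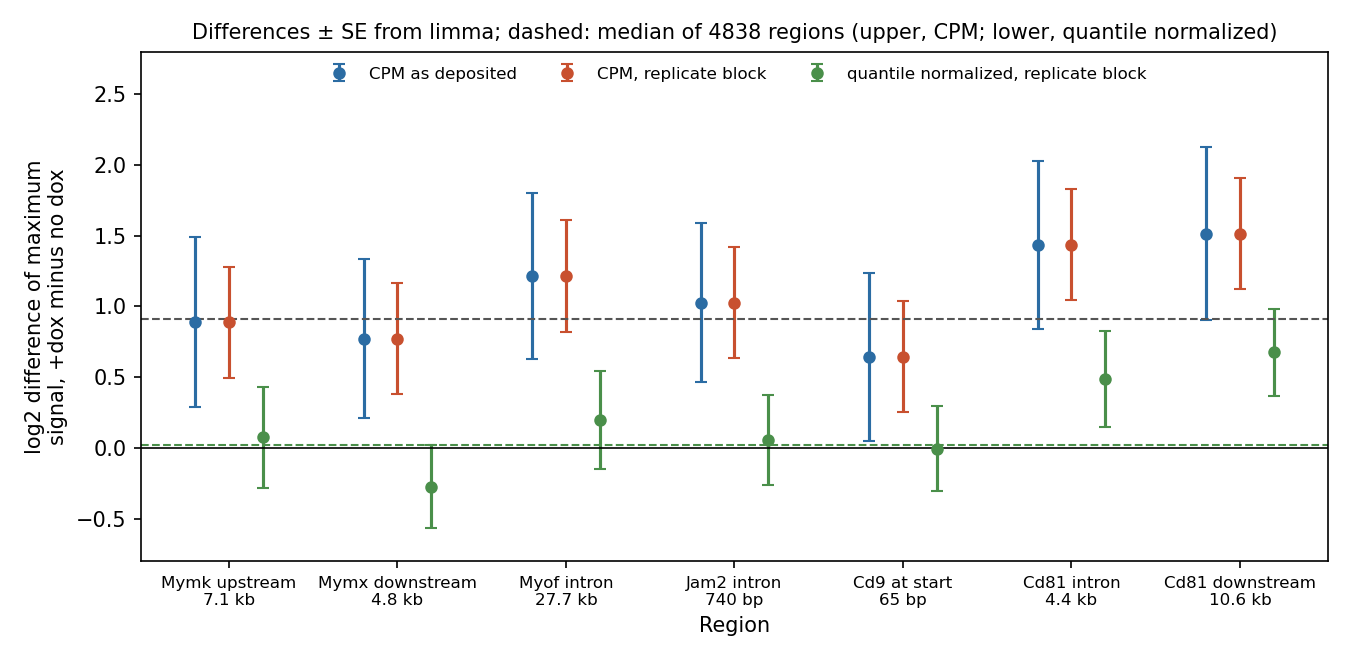
Differences in log2 maximum signal, +dox minus no dox, at the 7 regions under 3 limma fits, as points with SE bars. Dashed lines give the median of all 4838 regions in CPM (0.91) and after quantile normalization (0.023). In CPM the points scatter around the upper line, and after quantile normalization 5 lie above the lower line and Mymx and Cd9 below it.

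The number of peaks per gene separated at none of the 10 genes, against 4.29% of the 15749 protein-coding genes with a peak that separated upward (exact permutation p between 0.3 and 1, adjusted p = 1 for each). Binding at the genes' own starts, taken as a peak maximum within 1 kb of an annotated start, was uneven. Jam2 and Cd9 had it in all 6 libraries, as did 12% of protein-coding genes. Myof and Adam12 had it in 5 libraries, Cd81 in 4, Mymk and Mymx in 2, and Dysf, Adgrb1 and Adgrb3 in +dox replicate 3 alone. Thus all 10 genes had such a peak in 1 or more libraries, against 52.6% of protein-coding genes. The pattern of all +dox and no no dox libraries was found at 0 of 10 by this measure, since the separate peak in no dox replicate 3 lies within 1 kb of a second Cd81 start, and at 1.75% of protein-coding genes. Of the 7 regions in all 6 libraries, 3 lay outside the fusion gene and within 1 kb of another gene's start (Adamtsl2, Slc29a1 and Tssc4), and the lists do not say which gene such binding serves.

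A wider set of 40 genes with roles in fusion was counted in the same way. Of these, 12 had a region in all 6 libraries (30%, against 21.7% of protein-coding genes) and 18 a region in the +dox consensus alone (45%, against 25.6%). A region in all +dox and no no dox libraries was found at 0 of 40, against 3.77%. Windows were not matched for length, and no difference between the groups of genes was tested. The 17 genes of actin remodelling had 11 with a +dox-alone region and 3 with a region in all 6, while the 14 receptors and adhesion genes had 2 and 4. Of the 7 membrane repair and trafficking genes 3 and 3 did, and of the 2 signalling genes, Il4ra and Nfatc2, both had each kind. At their 19 regions in all 6 libraries the +dox mean was higher at 15, against 76.1% of the 4838, and the groups separated upward at 7, against 23.7%. The median difference was 11.1 percentiles, beside 6.4 over all. The highest mean percentiles were at Cdh15 (99.2), which encodes M-cadherin, Ehd2 (97.9), Nfatc2 (97.9), Trio (95.8), Anxa5 (94.7) and Il4ra (87.4), and the Mymx region of the main list stood at 92.8.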

How the data were processed

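CUT and RUN peak lists of 3 no dox and 3 +dox libraries were used. The authors ran nf-core/cutandrun 3.2.2 on mm10 with CPM scaling, removed blacklisted regions and called peaks per library with SEACR in relaxed mode. No control library or threshold is named. Each deposited list gives intervals with total and maximum signal (coverage in CPM), without read totals. Depth was taken from the steps of the maximum signal (100% whole multiples, tolerance 2% of a step). GRCm38 and GENCODE M21 gave positions. Peaks were merged where they overlapped or touched. Percentiles are ranks of maximum signal within a list. Python 3.11.15, pandas 2.3.3 and limma 3.58.1 (R 4.3.3) were used, and the scripts were tested on simulated data. Libraries of the same number departed together from their groups, with correlations of 0.485, 0.267 and 0.628 over the 4838 regions, so a replicate block was fitted as an alternative. The genes, lists and tests were chosen with earlier results of these data known. All 10 genes are named, with the region called most often or ranked highest at each, regions that separate the groups, and consensus-only regions. The Myof and Mymk second sites, the gene starts and the linking of maxima within 500 bp were added after values were seen. The labels call the samples biological replicates, and p-values measure the spread between them.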

Additional observations from a re-analysis of the deposited data

How the results depend on the processing

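The counts and percentile differences were recomputed with each library left out, with other lists, ranks, windows and fits. Among the recomputed summary results 79 values stayed within a margin and 26 moved. The margin was 1.5 times for counts and 1 SD between replicates for differences. For peaks per library this SD, 30.4, exceeded the difference itself, 25.7. Differences of 1 (without +dox replicate 3), 1.33 (lists of equal length) and 2 (both libraries numbered 3 left out) thus counted among the 79. Some values could not move, such as a group's consensus count when a library of the other group was left out. The 79 is therefore no measure of stability. With a library left out, no dox consensus regions ranged from 10 to 17 and +dox consensus regions from 16 to 22. The +dox-alone regions ranged from 3 to 12 and the no dox-alone regions from 0 to 4. In these consensus counts the group that lost a library needed both remaining libraries, while the other group needed 2 of 3. With a library left out limma called 0 to 4 of the 7 regions, the 4 without +dox replicate 3. That fit called 1955 of all 4838 regions higher with dox and 5 lower. Regions called in every library left ranged from 7 to 10. In lists of equal length 4 regions were called in all 6, with a median percentile difference of 3.83. Ranked among the regions called in all 6, the median was 4.28. With the gene body alone 4 regions were called in all 6. With 50 kb flanks there were 12, with 30 consensus regions without dox, 37 with dox and 2 in no dox alone. Asking for 3 of 3 libraries left 9 consensus regions without dox and 16 with dox. Of these, 8 were in +dox alone and 1 in no dox alone. Quantile normalization gave a median log2 difference of 0.074, with and without the replicate block. With the replicate block limma called 5 of the 7 regions. With both libraries numbered 3 left out it called 3, beside 1700 of all 4838 regions called higher and 12 lower. That setting gave 2 regions in no dox alone and a median percentile difference of 3.01. At single regions, the Mymx difference ranged from -0.98 (without +dox replicate 3) to 2.92 (without +dox replicate 2) with a library left out, and turned to -1.32 by rank of the total signal, -6.19 among the regions called in all 6 and -3.86 in lists of equal length, and that of Cd9 to -0.43 among the regions called in all 6. The causes of these changes were not tested. Linking maxima within 500 bp, an alternative added after the data were seen, gave 8 sites in all 6 libraries. The block changed no other call. Peaks of 4 to 50 alignments limit the ranks of the weakest regions.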
